A study of Homo sapiens with 12 samples.

Results

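RNA was sequenced from HMEC-1, a human dermal microvascular endothelial cell line, and the comparison described here set cells given a miR-143 mimic against cells given a miR-150 mimic. It holds 6 of the study's 12 libraries, 3 of each mimic, taken by the mimic named in the labels. The 3 libraries of each group carry the replicate numbers 2, 3 and 4, and libraries with the same number were treated as pairs. A scrambled RNA that targets no transcript, also in 3 libraries, served as the study's control, and cells given a miR-126 mimic made up the last 3 libraries. All groups received 50 nM of synthetic RNA with the lipid reagent Lipofectamine RNAiMAX in medium for endothelial cells and were collected 48 h later, so the lipid, the dose and the presence of a transfected small RNA were shared by every library. All libraries come from 1 immortalised line. Separate cultures are not stated for the replicates. The p-values of the paired fit then reflect only how far the differences within the pairs lay apart, a spread that may be technical.

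A mimic is a short double-stranded RNA that is loaded like a cell's own microRNA and raises the amount of that microRNA above its natural level. A microRNA guides the silencing complex to transcripts that pair with its seed, the bases near its 5′ end, mostly in 3′ UTRs, and these transcripts are then degraded or translated less. miR-143 is transcribed together with miR-145 and is abundant in smooth muscle, where it acts on genes of the actin cytoskeleton. miR-150 is abundant in mature lymphocytes, and the transcription factor MYB is its best known target there. Transfection of a mimic is shared by both groups of this contrast, but a gene that is lower with the miR-143 mimic may have fallen with it or risen with the miR-150 mimic. The level with scrambled RNA, or the difference from it, is therefore given beside some of the genes named. For the others, the contrast alone does not show which mimic moved.

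The mature sequence of miR-143-3p is shown with its seed, bases 2 to 8, in capitals, because the genes below are sorted by matches to it (RefSeq, GRCh38.p14, chr5:149428978-149428998, plus strand). The labels do not name the strand of the mimic, and the 3p strand is the guide strand of this microRNA. Below it stand stretches of 21 bases of 3′ UTR from 7 genes that were lower with the miR-143 mimic, with the match to the seed in capitals (GENCODE 29 transcripts on GRCh38, transcript strand). In each of them an A follows the match, which makes it an 8-mer.
hsa-miR-143-3p: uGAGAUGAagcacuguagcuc
TPM3, chr1:154156791-154156811, minus strand: agccatgtgaaacTCATCTCa
GXYLT1, chr12:42085741-42085761, minus strand: cagtccttcggctTCATCTCa
IGFBP5, chr2:216676653-216676673, minus strand: gacgccactcattTCATCTCa
TFF3, chr21:42312169-42312189, minus strand: tgccaggcactgtTCATCTCa
LIMK1, chr7:74122112-74122132, plus strand: tcagcccctgcagTCATCTCa
HK2, chr2:74893219-74893239, plus strand: gatgaatagcgaaTCATCTCa
ASAP3, chr1:23428609-23428629, minus strand: tgtctggtttcatTCATCTCa

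Values were TPM, a unit of abundance scaled for the length of each transcript and to the same total in every library. They were summed per gene symbol and tested on the scale log2(TPM + 1). TPM keep no read numbers, so sequencing depth is unknown. In the 6 libraries, between 12299 and 13199 genes reached 1 TPM. The libraries numbered 4 of both groups stood apart: their deviations correlated with transcript length across genes with a Spearman rho of -0.40 (miR-143 mimic) and -0.55 (miR-150 mimic), against -0.01 to 0.29 in the other 4. In miR-150 mimic replicate 4, transcripts of ribosomal proteins held 24.2% of TPM and mitochondrially encoded transcripts 1.35%. Counts without the pair numbered 4 therefore stand beside the counts of all 3 pairs. Endothelial markers were expressed in all 6 libraries, at levels that differed widely between markers. PECAM1 lay between 166 and 636 TPM and CDH5 between 216 and 366 TPM. KDR was lower, between 31.1 and 111 TPM, and CLDN5 lay between 7.71 and 24.3 TPM.

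The miR-143 and miR-150 mimics left the cells with different levels of many transcripts. Of 13750 genes tested, 882 were higher and 347 lower with the miR-143 mimic, 6.41% and 2.52% of them (limma with the replicate number as a block, two-sided, Benjamini-Hochberg adjusted p under 0.05), and among these 149 and 49 had a log2 fold change of 1 or more in size. All 1229 differed the same way in all 3 pairs, which a call in this paired fit nearly requires, so it is no separate support. The number of calls rests on the pairing. Without the replicate block the same 6 libraries gave 1 higher gene, FAM3C (0.00727%), and 3 lower ones, TPM3, TAF10 and ASNA1 (0.0218%), with 1137 genes at an unadjusted p under 0.05, so that of the gene lists below TPM3 alone was called without the block. Without the pair numbered 4 the counts were 492 higher (3.58%) and 290 lower (2.11%), without the pair numbered 2 they were 475 (3.45%) and 160 (1.16%), and without the pair numbered 3 they were 1699 (12.4%) and 601 (4.37%). In a paired fit, leaving out a library leaves out its partner as well. The share of higher genes among the calls was 71.8%, and it was 59.0% after centring on the median gene (906 higher and 630 lower genes, 6.59% and 4.58%), 56.7% after quantile normalization and 57.2% once the length trend had been taken out. The median gene differed by 0.06, -0.04 and 0.20 in the pairs 2, 3 and 4, and the difference correlated with transcript length across genes with a rho of 0.10, -0.14 and 0.30.

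The 10 genes lowest with the miR-143 mimic relative to the miR-150 mimic were led by CA2, carbonic anhydrase II, and TPM3, a tropomyosin that coats actin filaments. CA2 (GRCh38 chromosome 8, 85463852 to 85481493) measured 2.43, 2.67 and 1.29 TPM with the miR-143 mimic, against 16.7, 14.4 and 15.3 TPM with the miR-150 mimic and a mean of 3.32 ± 0.792 TPM with scrambled RNA (SD, n = 3; replicates 2, 3 and 4 here and below). Its log2 fold change was -2.42 (SE 0.195, limma adjusted p = 0.00177). Against scrambled RNA, CA2 differed by -0.48 with the miR-143 mimic (adjusted p = 0.352) and was higher by 1.94 with the miR-150 mimic (adjusted p = 0.00117). TPM3 (chromosome 1, 154155304 to 154194648) measured 117, 162 and 109 TPM with the miR-143 mimic, against 631, 793 and 495 TPM with the miR-150 mimic and 681 ± 79.2 TPM with scrambled RNA. Its log2 fold change of -2.29 had an SE of 0.0848 (adjusted p = 7.59e-05). The miR-143 libraries of TPM3 lay far below all libraries of the other 2 groups, and those of the miR-150 mimic and scrambled RNA differed by -0.11 (adjusted p = 0.804).

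TAF10, a subunit of the general transcription factor TFIID, and ASNA1, the ATPase that brings tail-anchored proteins to the endoplasmic reticulum, followed the pattern of TPM3. TAF10 (chromosome 11, 6606296 to 6612667) measured 34.3, 39.0 and 49.7 TPM with the miR-143 mimic and 149, 168 and 199.8 TPM with the miR-150 mimic (log2 fold change -2.05, SE 0.0891, adjusted p = 0.000131), with 141 ± 8.997 TPM in the control. It shares exons with ILK in the annotation, so its value is uncertain. ASNA1 (chromosome 19, 12737139 to 12748323) measured 41.7, 49.1 and 52.8 TPM with the miR-143 mimic and 144, 133 and 162 TPM with the miR-150 mimic (-1.59, SE 0.101, adjusted p = 0.00125), with 151 ± 3.11 TPM in the control. The 3′ UTRs of these 2 genes hold no match to the seed of miR-143-3p, and the coding sequence of each holds 2.

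GXYLT1, which adds xylose to O-linked glucose on NOTCH receptors, measured 10.7, 8.75 and 5.40 TPM with the miR-143 mimic, against 40.5, 39.6 and 16.6 TPM with the miR-150 mimic and 48.9 ± 4.94 TPM in the control (chromosome 12, 42081845 to 42144879; -1.78, SE 0.157, adjusted p = 0.00181). IGFBP5, a secreted binding protein for insulin-like growth factors, measured 63.4, 55.5 and 33.7 TPM with the miR-143 mimic, against 243, 151 and 95.6 TPM with the miR-150 mimic and 127 ± 16.5 TPM in the control (chromosome 2, 216672105 to 216695525; -1.61, SE 0.117, adjusted p = 0.00125). In both genes the pair numbered 4 was the lowest in its group, and the groups did not overlap. The trefoil peptide TFF3 (-1.60, adjusted p = 0.0213), the pseudogenes AC091849.1 (-1.53) and AL390198.2 (-1.49), and AC087721.2 (-1.61), which shares exons with NUSAP1, made up the rest of the 10. Of these 10 genes, AL390198.2 lost its call without the pair numbered 4 (adjusted p = 0.0514), and it was listed at 0 in 2 of the miR-143 libraries. With the block in all 12 libraries, AL390198.2 and AC091849.1 were not called (adjusted p = 0.0915 and 0.0587).

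The 10 genes highest with the miR-143 mimic were led by FAM3C, a secreted cytokine-like protein, and ADIPOR2, a receptor for the fat-cell hormone adiponectin. FAM3C (chromosome 7, 121348851 to 121396364) measured 112, 83.1 and 94.9 TPM with the miR-143 mimic, against 18.1, 21.9 and 13.2 TPM with the miR-150 mimic (log2 fold change 2.40, SE 0.169, adjusted p = 0.00125). Its control level of 43.6 ± 0.963 TPM lay between the mimics. Against scrambled RNA it was higher by 1.12 with the miR-143 mimic (adjusted p = 0.00703) and lower by -1.28 with the miR-150 mimic (adjusted p = 0.00347). The processed pseudogene FAM3C2 (1.87, adjusted p = 0.00457) may share reads with it. ADIPOR2 (chromosome 12, 1688574 to 1788678) measured 82.8, 78.1 and 69.6 TPM with the miR-143 mimic, against 16.5, 22.5 and 10.9 TPM with the miR-150 mimic (2.19, SE 0.160, adjusted p = 0.00125) and 78.9 ± 3.84 TPM in the control. Its miR-143 libraries were level with the control (-0.04, adjusted p = 0.947), and its miR-150 libraries were lower by -2.23 (adjusted p = 0.000293).

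**Figure D1:**
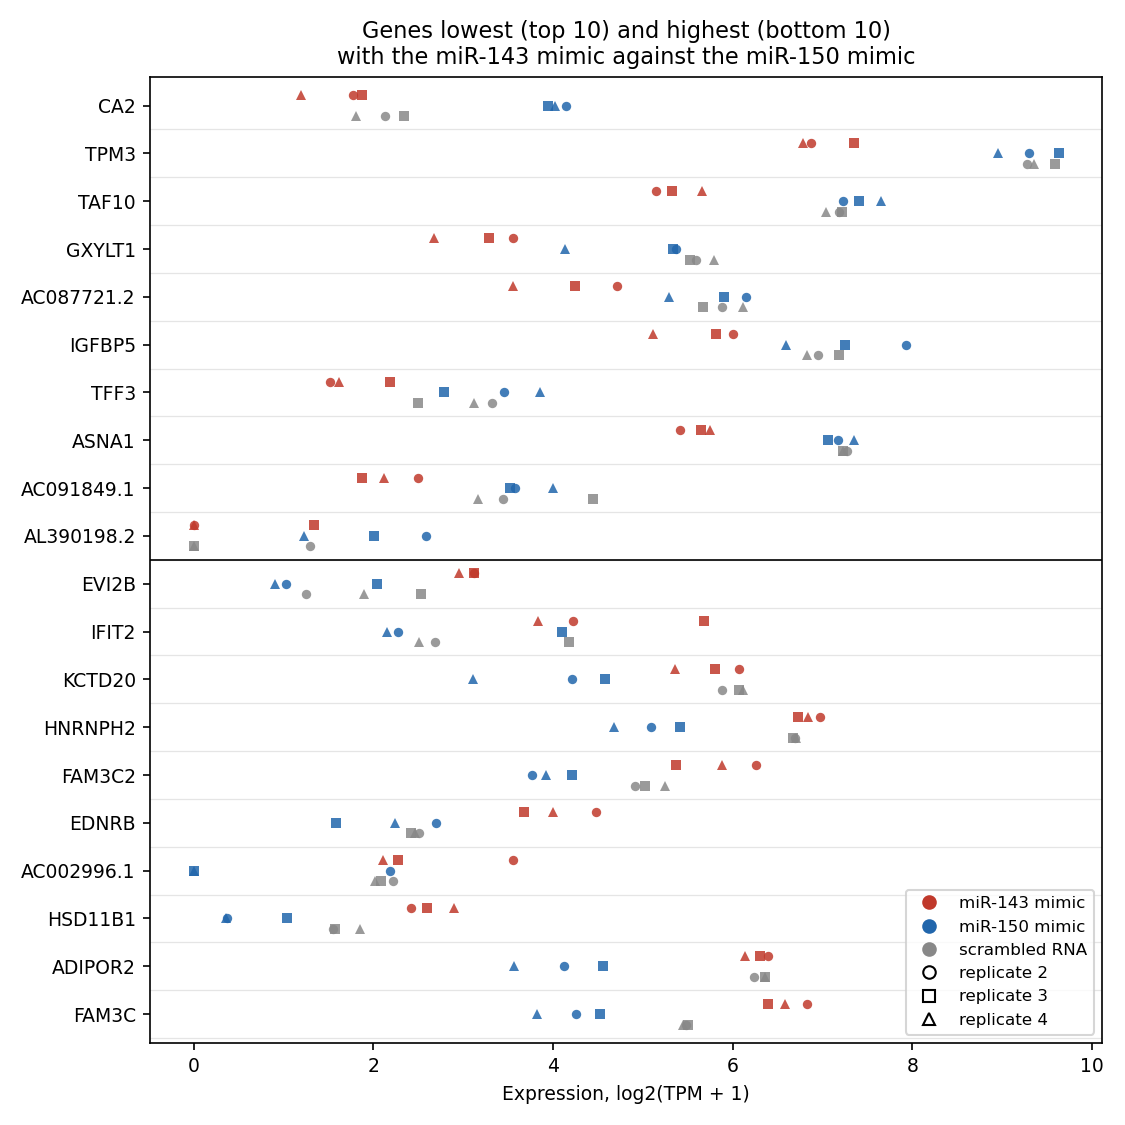
Expression as log2(TPM + 1) (x axis) in each library of the 10 genes lowest and the 10 highest with the miR-143 mimic relative to the miR-150 mimic, with scrambled RNA in grey and the replicate number as the marker shape. TPM3, TAF10 and ASNA1 have scrambled values beside those of the miR-150 mimic, while ADIPOR2, HNRNPH2 and KCTD20 have them beside those of the miR-143 mimic, and FAM3C has them in between.

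Of the other genes among the 10 highest, EDNRB, the type B endothelin receptor, measured 21.3, 11.8 and 15.0 TPM with the miR-143 mimic, against 5.50, 2.01 and 3.71 TPM with the miR-150 mimic (1.87, SE 0.163, adjusted p = 0.00177) and 4.53 ± 0.171 TPM in the control. HSD11B1, which regenerates active glucocorticoid inside cells, measured 4.35, 5.06 and 6.45 TPM with the miR-143 mimic, against 0.297, 1.06 and 0.282 TPM with the miR-150 mimic (2.05, SE 0.230, adjusted p = 0.00365) and 2.18 ± 0.381 TPM in the control. The splicing regulator HNRNPH2 (1.79), KCTD20 (1.78), the interferon-induced IFIT2 (1.74), the membrane protein EVI2B (1.74) and AC002996.1 (1.92) completed the 10. HNRNPH2 shares exons with a readthrough transcript of RPL36A, IFIT2 with LIPA, and AC002996.1 with ACAD10 and ALDH2, so these 3 values are uncertain. With the block in all 12 libraries, AC002996.1 was not called (adjusted p = 0.183).

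Set against scrambled RNA, the genes lower with the miR-143 mimic and those higher with it differed in which mimic had moved. Of the 347 lower genes, 89 were below scrambled RNA with the miR-143 mimic and 23 were above it with the miR-150 mimic (all 12 libraries without a block, where 1.48% of all genes were lower with the miR-143 mimic and 1.08% higher with the miR-150 mimic). Of the 882 higher genes, 77 were above scrambled RNA with the miR-143 mimic and 172 were below it with the miR-150 mimic (1.84% and 2.23% of all genes). In the same libraries with the block, 173 of the 347 lower genes were below scrambled RNA with the miR-143 mimic and 65 above it with the miR-150 mimic (5.87% and 4.11% of all genes), and of the 882 higher genes 281 were above it with the miR-143 mimic and 382 below it with the miR-150 mimic (7.04% and 8.21%). Without the block, among the 10 lowest genes, 6 were below the control with the miR-143 mimic and 1 above it with the miR-150 mimic. Among the 10 highest, 3 were above the control with the miR-143 mimic and 6 below it with the miR-150 mimic, again without the block. With the block, TFF3 was also below it with the miR-143 mimic (limma adjusted p = 0.0269). Of the 10 highest, FAM3C, HSD11B1, EDNRB, IFIT2 and EVI2B were then above it with the miR-143 mimic. FAM3C, ADIPOR2, HSD11B1, FAM3C2, HNRNPH2 and KCTD20 were below it with the miR-150 mimic. These counts share the mimic libraries with the comparison that chose the genes and are given as a description.

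Matches to the miR-143 seed were more frequent among the lower genes. The 7-mer TCATCTC, searched on the transcript strand, stood in the longest 3′ UTR of 1793 of 12426 tested genes with a UTR (14.4%), and the 8-mer TCATCTCA, which contains it, in 604 (4.86%). Of the genes with an 8-mer, 10.4% were lower with the miR-143 mimic and 2.32% higher. Of the 1189 with a 7-mer but no 8-mer, 4.29% were lower and 5.55% higher, and of the 10633 with neither, 1.97% were lower and 7.35% higher. Without the pair numbered 4, 11.3%, 4.29% and 1.31% of these 3 classes were lower. The median log2 fold change was -0.02 for genes with an 8-mer, 0.01 for those with a 7-mer alone and 0.08 for those with neither. Against scrambled RNA, the median of genes with an 8-mer was -0.25 with the miR-143 mimic and -0.22 with the miR-150 mimic. For genes without a 7-mer these medians were -0.02 and -0.10. Genes with an 8-mer were thus lower relative to the control with both mimics when the libraries numbered 4 were included. In the miR-150 libraries 2, 3 and 4, genes with an 8-mer differed from genes with none by 0.17, 0.17 and -0.13 (log2). In the miR-143 libraries they differed by 0.007, -0.04 and -0.20. The medians against scrambled RNA were not taken without the libraries numbered 4. The median of genes with an 8-mer differed from that of genes without one by -0.11, -0.17 and -0.05 in the pairs 2, 3 and 4. Of the 7 lowest genes that have a UTR, 5 carried the 7-mer, namely CA2, TPM3, GXYLT1, IGFBP5 and TFF3, against 0 of the 8 highest with a UTR. CA2, however, was called above scrambled RNA with the miR-150 mimic and not below it with the miR-143 mimic. Matches to the seed of miR-150 were not searched, so what they contribute to either direction was not tested.

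Genes with a match have long 3′ UTRs, with a median of 3460 bases for the 8-mer against 1162 bases for genes without a 7-mer, and the pair numbered 4 differed with transcript length, so the shares were also taken in 4 groups of equal size by UTR length. In the group with the shortest UTRs, up to 564 bases, 37.5% of the 24 genes with an 8-mer were lower, against 3.34% of the 3026 without a 7-mer. In UTRs of 565 to 1350 bases the shares were 25.8% against 1.85%, in UTRs of 1351 to 2699 bases 16.1% against 1.20%, and in longer UTRs 3.98% of 377 genes against 1.10% of 2082. With the length trend removed from the fit, 20.2% of the genes with an 8-mer and 6.17% of those without a 7-mer were lower (7.21% of all genes). Of the genes without a match in the UTR, those with a 7-mer in the coding sequence were lower in 3.17% of 1387 cases and those without one in 1.78% of 9246.

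**Figure D2:**
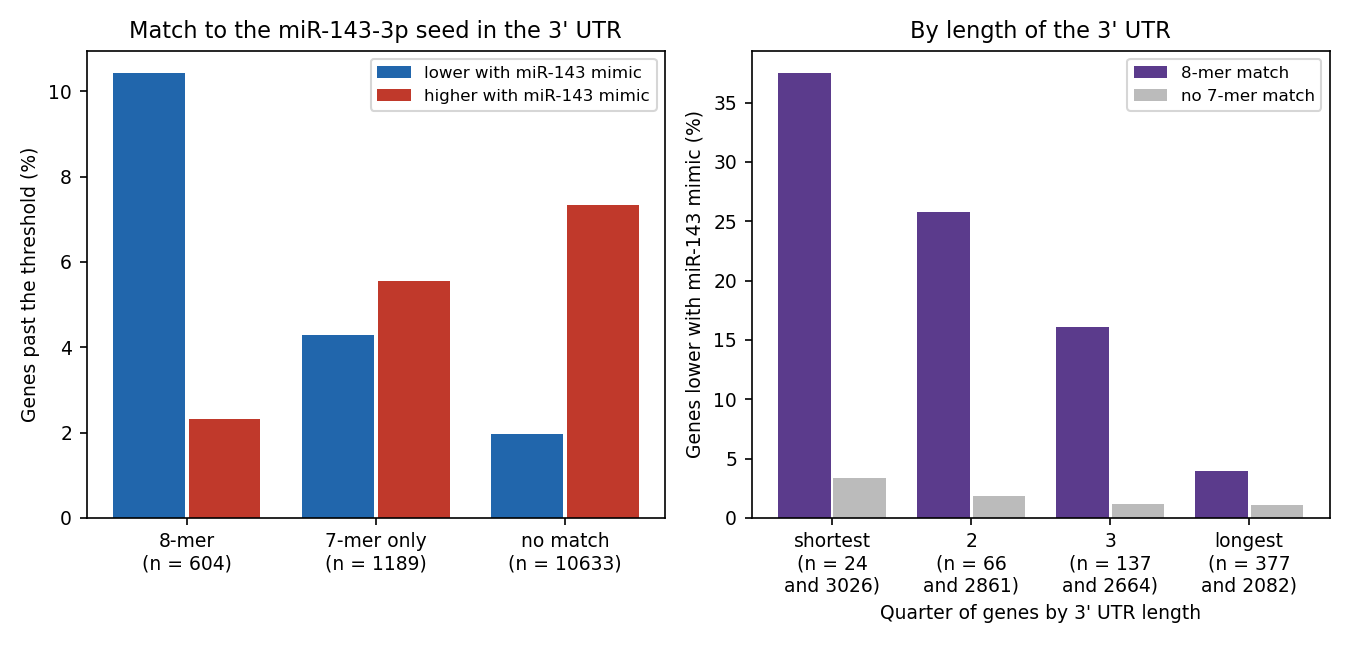
Left, share of genes (y axis, percent) that were lower (blue) or higher (red) with the miR-143 mimic relative to the miR-150 mimic, by match to the miR-143-3p seed in the 3′ UTR; right, share that were lower, in 4 groups by 3′ UTR length, for genes with an 8-mer (purple) and genes without a 7-mer (grey), with both numbers of genes under each group. Lower genes make up 10.4% of those with an 8-mer and 1.97% of those without a match, and the purple bar is the taller in each group.

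Among genes reported elsewhere as miR-143 targets, 19 were tested, of which 5 were lower and 1 higher (26.3% and 5.26%, against 2.52% and 6.41% of all genes), with a median log2 fold change of -0.24 beside 0.07 for all genes. Without the pair numbered 4, 4 were lower and 0 higher. LIMK1, the kinase that stabilises actin filaments by inactivating cofilin, measured 12.7, 15.1 and 10.8 TPM with the miR-143 mimic, against 26.8, 35.99 and 20.6 TPM with the miR-150 mimic (-1.03, SE 0.133, adjusted p = 0.00578). Scrambled RNA gave 45.5 ± 3.20 TPM, so LIMK1 was lower than the control with the miR-143 mimic (-1.75, adjusted p = 0.0017), with -0.72 (adjusted p = 0.0935) for the miR-150 mimic. With the block in all 12 libraries, LIMK1 was called lower than the control with the miR-150 mimic as well (adjusted p = 0.0102). HK2, the inducible hexokinase that starts glycolysis, measured 1.36, 2.42 and 0.827 TPM with the miR-143 mimic, against 4.13, 5.49 and 1.81 TPM with the miR-150 mimic (-0.89, SE 0.193, adjusted p = 0.0314). ASAP3, a regulator of ARF GTPases, was lower by -0.84 (adjusted p = 0.0252) and the actin-bundling protein fascin, FSCN1, by -0.43 (adjusted p = 0.0234). The FSCN1 transcripts with a mean of at least 1 TPM hold no match to the 7-mer. HK2, ASAP3 and FSCN1 lost their calls without the pair numbered 2 (adjusted p = 0.193, 0.121 and 0.166), and FSCN1 also without the pair numbered 4 (0.0524). IGFBP5 and LIMK1 kept theirs in each such fit.

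CD44, the hyaluronan receptor, was the member that was higher, at 96.6, 124 and 79.0 TPM with the miR-143 mimic and 56.9, 105 and 47.4 TPM with the miR-150 mimic (0.57, SE 0.123, adjusted p = 0.0308). Its control level was 162 ± 32.6 TPM, above both mimics on average, and the call was lost without the pair numbered 2 (adjusted p = 0.119) or 4 (0.0742). MAPK7, the kinase ERK5, differed by -0.36 (SE 0.142, adjusted p = 0.159). Its groups overlapped.

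Of the genes reported as miR-150 targets, 20 were tested, with 3 higher and 1 lower with the miR-143 mimic (15.0% and 5%, against 6.41% and 2.52% of all genes) and a median of 0.12. Without the pair numbered 4 the counts were the same, but the median was -0.06. In the pairs 2, 3 and 4 the median was 0.15, -0.10 and 0.38. ADIPOR2, given above, showed the largest difference. MMP14, the membrane-anchored collagenase, measured 161, 173 and 142 TPM with the miR-143 mimic, against 75.5, 101 and 63.2 TPM with the miR-150 mimic (1.003, SE 0.103, adjusted p = 0.00271). ADAM19, a membrane metalloprotease, measured 22.7, 20.4 and 17.8 TPM with the miR-143 mimic, against 13.4, 10.3 and 7.34 TPM with the miR-150 mimic (0.94, SE 0.149, adjusted p = 0.0115). With scrambled RNA these 2 genes measured 314 ± 11.8 and 41.3 ± 7.69 TPM. Both mimics were thus below the control, MMP14 by -0.98 (adjusted p = 0.00848) with the miR-143 mimic and -1.99 (adjusted p = 0.000269) with the miR-150 mimic, and ADAM19 by -0.98 (adjusted p = 0.0294) and -1.92 (adjusted p = 0.00057). ADAM19 shares exons with CYFIP2 in the annotation.

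EGR1, an immediate early transcription factor, went the other way among these genes, at 5.53, 2.92 and 2.13 TPM with the miR-143 mimic against 19.8, 8.53 and 4.55 TPM with the miR-150 mimic (-1.26, SE 0.204, adjusted p = 0.0123), and its control level of 4.90 ± 3.14 TPM lay among these values. With the block in all 12 libraries, EGR1 was higher than scrambled RNA by 0.93 with the miR-150 mimic (limma adjusted p = 0.0245). With the miR-143 mimic it differed by -0.33 (adjusted p = 0.362). The 3′ UTR of EGR1 holds the 7-mer of miR-143. MYB did not reach 1 TPM in any of the 6 libraries (highest 0.425 TPM) and was not tested. Several angiogenic members did not pass the test. The tip-cell ligand DLL4 measured 10.4, 7.25 and 10.03 TPM with the miR-143 mimic and 0.677, 5.18 and 7.77 TPM with the miR-150 mimic (1.17, SE 0.434, adjusted p = 0.136). The Norrin receptor FZD4 (-0.02, SE 0.101, adjusted p = 0.924), the chemokine receptor CXCR4 (-0.11, SE 0.193, adjusted p = 0.762), the transcription factor ETS1 (0.17, SE 0.119, adjusted p = 0.411), NOTCH3 (0.58, SE 0.208, adjusted p = 0.127) and the acetyltransferase EP300 (0.83, SE 0.227, adjusted p = 0.0626) were likewise short of the threshold.

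Among 58 genes of actin filament assembly and contractility, TPM3, LIMK1 and FSCN1 were lower and 7 were higher (5.17% and 12.1%, against 2.52% and 6.41% of all genes), with a median of 0.19. After centring on the median gene, 4 were lower and 2 higher. The higher members included CORO1C, which binds actin filaments at the cell edge (0.77, adjusted p = 0.0158), CAP1, which recycles actin monomers (0.58, adjusted p = 0.019), and the regulatory myosin light chains MYL12A (0.51, adjusted p = 0.00853) and MYL12B (0.49, adjusted p = 0.0103), which are near-identical copies. MYL12A measured 995, 1069 and 1111 TPM with the miR-143 mimic, against 707, 758 and 763 TPM with the miR-150 mimic. With a pair left out, the higher members numbered 3 (without 2), 24 (without 3) and 5 (without 4), and MYL12B lost its call without the pair numbered 2 (adjusted p = 0.0622). After centring, MYL12A and MYL12B were not called (adjusted p = 0.0627 and 0.0934).

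The difference in TPM3 was present in its most abundant protein-coding transcripts. TPM3-207 measured 59.0, 75.4 and 53.5 TPM with the miR-143 mimic, against 249, 284 and 257 TPM with the miR-150 mimic. TPM3-205 measured 28.03, 28.2 and 18.7 TPM with the miR-143 mimic, against 159, 215 and 104 TPM with the miR-150 mimic. Both hold the 7-mer. TPM3-211, a coding transcript without it, was low in both groups, at 0.30, 2.37 and 1.43 TPM with the miR-143 mimic and 2.19, 2.66 and 1.74 TPM with the miR-150 mimic. TPM3-203, a transcript without a coding frame and without the 7-mer, measured 3.67, 4.92 and 0 TPM with the miR-143 mimic and 57.9, 118 and 0 TPM with the miR-150 mimic. Transcripts of 1 gene share most of their reads, so their separate values are uncertain.

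Several enzymes that modify and cross-link collagen were higher with the miR-143 mimic than with the miR-150 mimic. Of 19 tested, 9 were higher and 0 lower (47.4%, against 6.41% of all genes), with a median of 0.40, and 5, 11 and 6 were higher without the pairs 2, 3 and 4. Without the block, 0 of the 19 were called in the 6 libraries and 6 in all 12. LOXL1, LOXL4 and CRTAP lay below 0, none of them past the threshold. PLOD1 and PLOD2, which hydroxylate lysines of collagen, led with PLOD1 at 169.9, 167 and 181 TPM with the miR-143 mimic and 82.7, 96.3 and 82.2 TPM with the miR-150 mimic (0.98, SE 0.0973, adjusted p = 0.00239). PLOD2 measured 235, 166 and 156 TPM with the miR-143 mimic and 104, 109 and 60.2 TPM with the miR-150 mimic (1.04, SE 0.140, adjusted p = 0.00656). The groups did not overlap in either gene. COLGALT1, which adds galactose to collagen (0.61, adjusted p = 0.0148), and P4HA3, a prolyl hydroxylase (0.89, adjusted p = 0.0155), were also higher, and P4HA3 lost its call without the pair numbered 2 (adjusted p = 0.0906). The list's mean log2 level was 5.95, 5.89 and 5.82 with the miR-143 mimic, 5.61, 5.57 and 5.33 with the miR-150 mimic, and 6.12, 6.09 and 6.21 with scrambled RNA. Against scrambled RNA, PLOD1 differed by -0.08 with the miR-143 mimic (adjusted p = 0.724) and was lower with the miR-150 mimic (-1.06, adjusted p = 0.000293).

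Matrix proteases and their inhibitors had 6 higher and 0 lower of 24 (25.0%, against 6.41% of all genes), with a median of 0.07, the same as all genes, and 4 higher and 1 lower without the pair numbered 4. Besides MMP14 and ADAM19 these included ADAM15 (0.60, adjusted p = 0.00626) and the aggrecanase ADAMTS4 (0.81, adjusted p = 0.0154; 0.0786 with the block in all 12 libraries). Of 33 collagens, laminins and matricellular proteins, 6 were higher and 2 lower (18.2% and 6.06%), as many as without the pair numbered 4. SPARC, an abundant collagen-binding protein, measured 3767, 2936 and 3308 TPM with the miR-143 mimic, against 2482, 1993 and 1959 TPM with the miR-150 mimic (0.64, SE 0.0818, adjusted p = 0.00569; 0.061 after centring). COL8A1, a network collagen of vessel walls (0.94, adjusted p = 0.00875), MMRN1, a platelet and endothelial protein (1.17, adjusted p = 0.0162), and the basement membrane protein NID2 (0.76, adjusted p = 0.00778) were higher as well. The lower members were thrombospondin 1, THBS1 (-0.57, adjusted p = 0.0172; 0.193 with the block in all 12 libraries), an inhibitor of angiogenesis, and CCN2 (-0.57, adjusted p = 0.00771), a target of YAP. Of 32 integrins and focal adhesion genes, 5 were higher and 0 lower (15.6%; 3 and 0 without the pair numbered 4), among them ITGB5 (0.86, adjusted p = 0.00417) and ITGA3 (0.72, adjusted p = 0.0117).

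**Figure D3:**
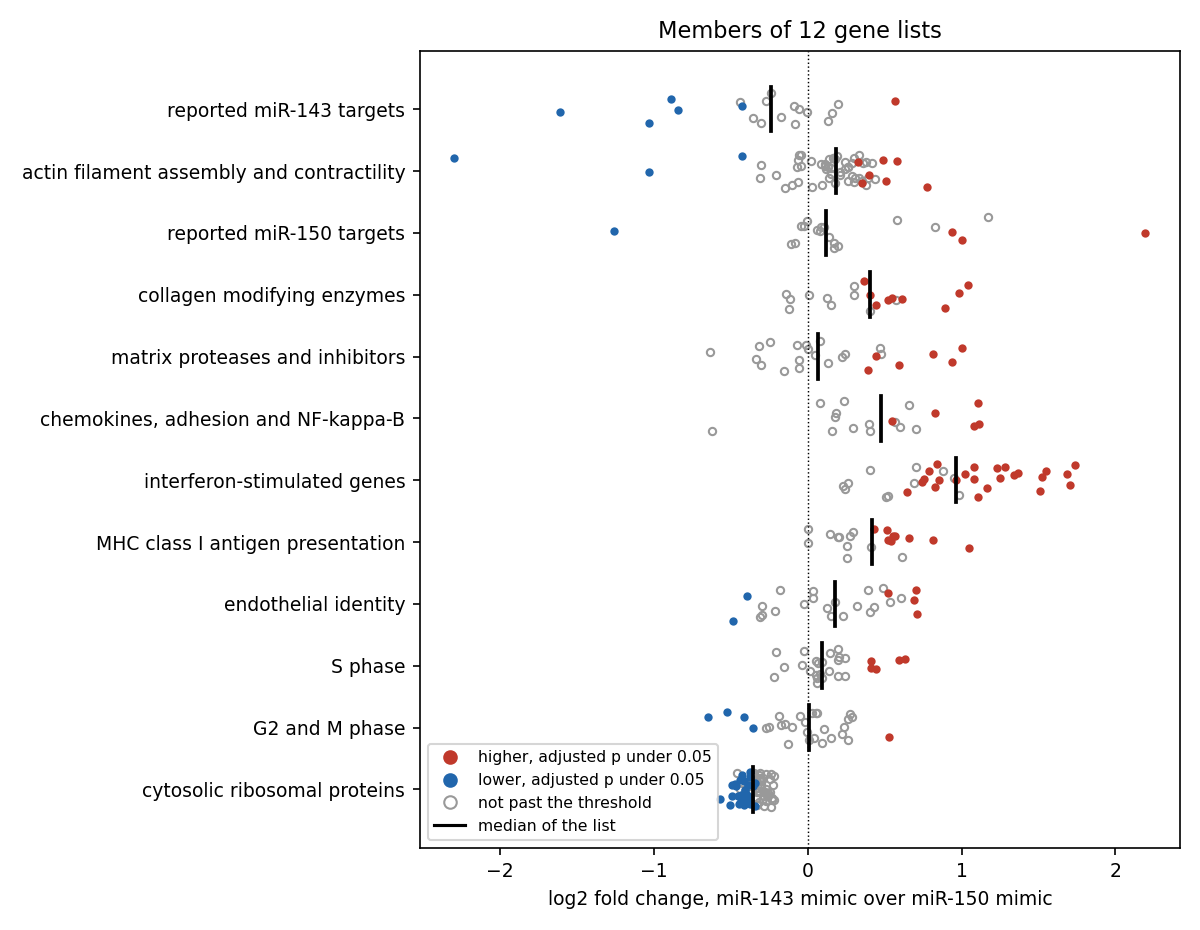
Log2 fold change, miR-143 mimic over miR-150 mimic (x axis), of the tested members of 12 gene lists, with genes higher in red, lower in blue, those not past the threshold as open circles and the median of each list as a black bar. Interferon-stimulated genes lie to the right of 0 and cytosolic ribosomal proteins to the left, and TPM3 and LIMK1, 2 of the 3 lower members of the actin list, lie apart from its other members.

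Genes of endothelial identity moved in both directions, with 4 of 25 higher and 2 lower (16.0% and 8%, against 6.41% and 2.52% of all genes; median 0.18), or 3 and 1 without the pair numbered 4. The VEGF receptor KDR measured 111, 46.5 and 66.7 TPM with the miR-143 mimic and 70.6, 35.2 and 31.1 TPM with the miR-150 mimic (0.70, SE 0.139, adjusted p = 0.0234). Each pair was higher with the miR-143 mimic, while the groups as a whole overlapped. FLT1, the decoy receptor for VEGF, was higher by 0.82 (adjusted p = 0.0158), the TGF-beta coreceptor endoglin, ENG, by 0.52 (adjusted p = 0.015) and CLEC14A by 0.69 (adjusted p = 0.00732). KDR and FLT1 were the 2 higher genes of 17 in VEGF and angiopoietin signalling (11.8%, against 6.41% of all genes; also 2 without the pair numbered 4), with 0 lower. With the block in all 12 libraries, KDR and FLT1 were not called (adjusted p = 0.0691 and 0.0604). Endothelial nitric oxide synthase, NOS3, was lower, at 21.6, 26.6 and 24.9 TPM with the miR-143 mimic against 35.1, 33.3 and 34.6 TPM with the miR-150 mimic (-0.48, SE 0.123, adjusted p = 0.0497), and so was the guidance receptor ROBO4 (-0.39, adjusted p = 0.0381). The call of NOS3 was lost without the pair numbered 2 (adjusted p = 0.481) or 4 (0.0867), and that of ROBO4 without the pair numbered 2 (0.218) or with the block in all 12 libraries (0.0949).

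Receptors and peptides that act on vessel tone had 6 of 16 higher and 0 lower (37.5%, against 6.41% of all genes; median 0.18), or 5 and 0 without the pair numbered 4. After EDNRB, the thrombin receptor F2R was higher by 1.06 (adjusted p = 0.0206) and ECE1, which cuts out mature endothelin, by 0.88 (SE 0.137, adjusted p = 0.0107), at 444, 308 and 316 TPM with the miR-143 mimic against 238, 219 and 131 TPM with the miR-150 mimic. In WNT and Norrin signalling, 2 of 23 were higher and 0 lower (8.70%, near the 6.41% of all genes), and 1 of them, DKK3, without the pair numbered 4. DVL2, which passes on WNT signals, was the other (0.56, adjusted p = 0.0416), and it lost its call without the pair numbered 2 (0.0758) or 4 (0.0961). DKK3, a secreted protein of the Dickkopf family, measured 239, 257 and 242 TPM with the miR-143 mimic, against 96.6, 128 and 84.9 TPM with the miR-150 mimic (1.26, SE 0.109, adjusted p = 0.00177) and 84.96 ± 10.7 TPM in the control, from which the miR-143 mimic differed by 1.53 (adjusted p = 0.00051). In NOTCH signalling, GXYLT1 was lower, and NOTCH2 (0.78, adjusted p = 0.0449) and NOTCH4 (0.63, adjusted p = 0.0347) were higher of 20 (5% lower and 10% higher, against 2.52% and 6.41% of all genes). NOTCH2 and NOTCH4 lost their calls without the pair numbered 2 (adjusted p = 0.0795 and 0.325) or 4 (0.0861 and 0.08) and with the block in all 12 libraries (0.186 and 0.0561), and NOTCH4 shares exons with GPSM3. Among 28 TGF-beta signalling and mesenchymal genes, ENG and the cadherin CDH2 (0.99, adjusted p = 0.0233) were higher and 0 were lower (7.14%, near the 6.41% of all genes).

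The miR-143 mimic gave higher levels of interferon-stimulated genes than the miR-150 mimic in every pair. Of 35 tested, 24 were higher and 0 lower (68.6%, against 6.41% of all genes), all 35 had a log2 fold change above 0, and the median was 0.96. The count was 24, 26 and 24 without the pairs 2, 3 and 4. These genes also varied strongly with the replicate number in every group. The list's mean log2 level was 4.57, 6.68 and 4.24 with the miR-143 mimic, 3.59, 5.70 and 3.25 with the miR-150 mimic, and 3.34, 5.36 and 3.22 with scrambled RNA, so the libraries numbered 3 were the highest of each group. Without the block, limma called 0 of the 35 in the 6 libraries and 0 in all 12 (1.59% of all genes higher there), with 1 at an unadjusted p under 0.05 in each fit. MX1, an antiviral GTPase, measured 38.8, 512 and 31.5 TPM with the miR-143 mimic, against 10.1, 219.9 and 7.14 TPM with the miR-150 mimic (1.69, SE 0.155, adjusted p = 0.00194). OASL, of the oligoadenylate synthetase family, measured 9.31, 42.0 and 8.61 TPM with the miR-143 mimic, against 2.28, 12.3 and 1.81 TPM with the miR-150 mimic (1.70, SE 0.153, adjusted p = 0.00181). IFIT1, which binds foreign RNA, was higher by 1.55 (SE 0.139, adjusted p = 0.00181). In each of these 3 genes the groups overlapped because of the pair numbered 3. Against scrambled RNA, limma with the replicate number as a block in all 12 libraries called 25 of the 35 higher with the miR-143 mimic (7.04% of all genes) and 8 higher with the miR-150 mimic (4.11% of all genes), and without the block it called 0 with either mimic. With that block, MX1 was higher than scrambled RNA by 2.08 with the miR-143 mimic (adjusted p = 0.00273) and differed by 0.40 with the miR-150 mimic (adjusted p = 0.414).

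**Figure D4:**
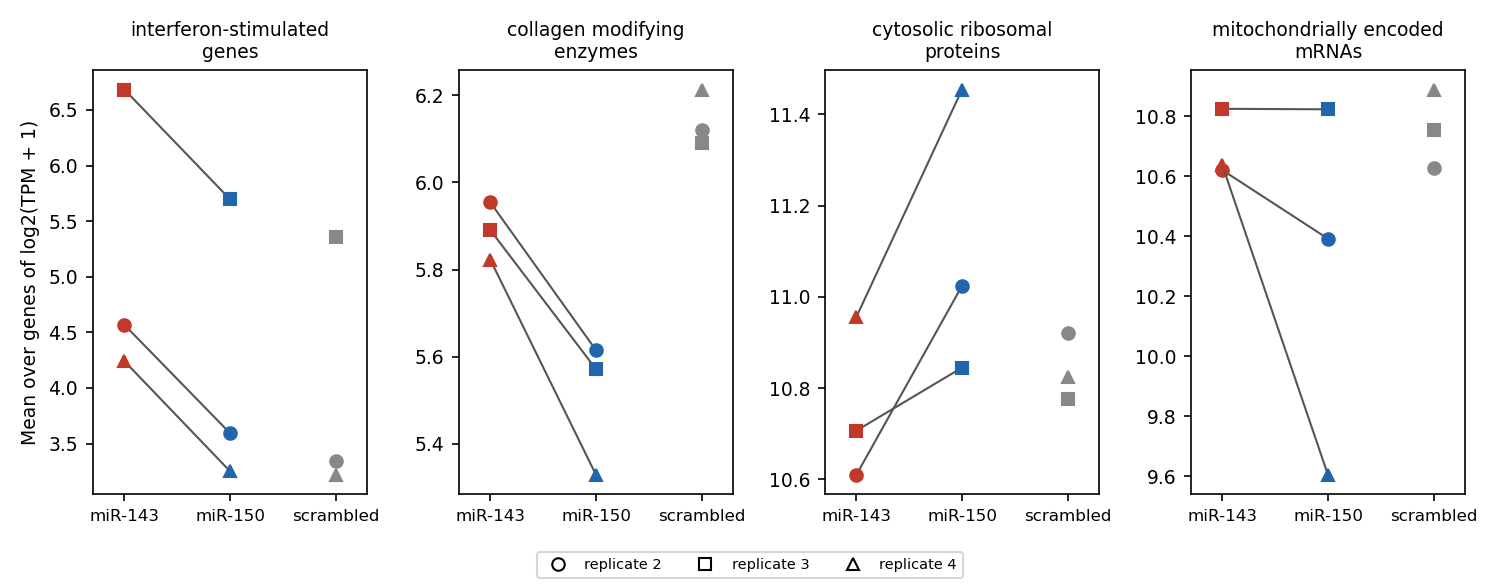
Mean over the genes of a list of log2(TPM + 1) (y axis) in each library of the miR-143 mimic, the miR-150 mimic and scrambled RNA, with lines joining libraries of the same replicate number; the y axes differ and do not start at 0. Interferon-stimulated genes and collagen modifying enzymes are higher with the miR-143 mimic in each pair, ribosomal proteins are lower in each pair, and the libraries numbered 3 are the highest for interferon-stimulated genes in each group.

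Genes of antigen presentation by MHC class I had 9 of 20 higher and 0 lower (45.0%, against 6.41% of all genes; median 0.42). The higher members numbered 8 without the pair numbered 4, 3 after centring on the median gene, and 2 in all 12 libraries without the block. HLA-B measured 1188, 1977 and 1117 TPM with the miR-143 mimic, against 679, 1008 and 700.5 TPM with the miR-150 mimic (0.82, SE 0.0859, adjusted p = 0.00278). Class I genes are close copies of each other, so reads may be split between them. The peptide transporter TAP1 was higher by 0.66 (adjusted p = 0.0171). Of 18 chemokines, adhesion molecules and NF-kappa-B genes, 5 were higher and 0 lower (27.8%; median 0.48), or 4 and 0 without the pair numbered 4. CCL2, which attracts monocytes, measured 53.2, 78.4 and 65.3 TPM with the miR-143 mimic, against 27.99, 33.0 and 27.98 TPM with the miR-150 mimic (1.11, SE 0.112, adjusted p = 0.00258) and 54.7 ± 6.06 TPM in the control. ICAM1, which binds leukocytes, was higher by 1.08 (adjusted p = 0.00291), and the neutrophil chemokines CXCL5 by 1.12 (adjusted p = 0.0171) and CXCL2 by 0.83 (adjusted p = 0.0286). CXCL2 lost its call without the pair numbered 2 (adjusted p = 0.107). Against scrambled RNA, with the block in all 12 libraries, CCL2 was lower with the miR-150 mimic (-0.86, limma adjusted p = 0.00163). ICAM1, CXCL5 and CXCL2 were instead higher with the miR-143 mimic (0.86, 1.60 and 0.84, adjusted p = 0.00281, 0.000752 and 0.0222). Of the list, 6 were higher with the miR-143 mimic in that fit (7.04% of all genes), and 2 without the block (1.84%).

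Cell cycle genes showed small differences. Of 27 S phase genes, 5 were higher and 0 lower (18.5%, against 6.41% of all genes), with a median of 0.09. Among the higher ones was TYMS, which makes thymidylate (0.63, adjusted p = 0.00598). Their count was 1, 5 and 2 without the pairs 2, 3 and 4. Of 29 genes of G2 and M phase, 1 was higher and 4 lower (3.45% and 13.8%, against 6.41% and 2.52% of all genes). The median was 0.01, and the counts were 1 and 2 without the pair numbered 4. CDC20, which activates the anaphase-promoting complex, measured 151, 136 and 153 TPM with the miR-143 mimic, against 234, 220.3 and 236 TPM with the miR-150 mimic (-0.65, SE 0.0797, adjusted p = 0.00477), and was lower than scrambled RNA with the miR-143 mimic (-0.47, adjusted p = 0.0128). CDC25B (-0.52), AURKB (-0.41) and CDK1 (-0.35) were lower and NEK2 (0.53) was higher, and these 4 lost their calls without the pair numbered 2 (adjusted p = 0.056, 0.191, 0.297 and 0.204). AURKB and CDK1 lost them also without the pair numbered 4 (adjusted p = 0.058 and 0.0829). Of 27 p53 targets and apoptosis genes, MDM2, which degrades p53, was lower (-0.76, SE 0.0959, adjusted p = 0.00543) and BTG2 higher (0.44, adjusted p = 0.0468), the last not without the pair numbered 2 (adjusted p = 0.286) or 4 (0.113). Each is 3.70% of the list, near the shares of all genes (6.41% higher and 2.52% lower).

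Metabolic genes differed gene by gene. PGK1, a glycolytic kinase, measured 207, 235 and 173 TPM with the miR-143 mimic, against 400.2, 436 and 318 TPM with the miR-150 mimic (-0.90, SE 0.0772, adjusted p = 0.00177) and 374 ± 32.1 TPM in the control. Of 23 glycolytic genes, PGK1 and HK2 were lower and 4 were higher (8.70% and 17.4%, against 2.52% and 6.41% of all genes). Among the higher ones were PFKFB3, an activator of glycolysis (0.79, adjusted p = 0.0167), and PKM, pyruvate kinase (0.47, adjusted p = 0.019). The higher calls numbered 0, 5 and 1 without the pairs 2, 3 and 4. PFKFB3 and PKM were not called without the pair numbered 2 (adjusted p = 0.107 and 0.112), nor PKM without the pair numbered 4 (0.0649) or after centring (0.0784). Of 22 genes of cholesterol synthesis and uptake, 3 were higher and 1 lower (13.6% and 4.55%; 2 and 1 without the pair numbered 4), the lower one being the sterol carrier STARD4 (-0.95, adjusted p = 0.0061). Of 22 genes of adiponectin receptors and fatty acid use, ADIPOR2, ADIPOR1 (0.75, adjusted p = 0.0131) and PPARG (0.61, adjusted p = 0.019) were higher and 0 were lower (13.6%), and PPARG lost its call without the pair numbered 2 (adjusted p = 0.124). IGFBP4 (0.51, adjusted p = 0.0162) and IGFBP2 (0.40, adjusted p = 0.0299) were higher and IGFBP5 lower of 27 genes of insulin and IGF signalling. These shares of 7.41% higher and 3.70% lower are near those of all genes. IGFBP4 and IGFBP2 were not called without the pair numbered 2 (adjusted p = 0.0706 and 0.308), nor IGFBP2 after centring (0.0978) or with the block in all 12 libraries (0.0693). EPAS1 (0.86, adjusted p = 0.0165) and NDRG1 (0.37, adjusted p = 0.0403) were the higher ones of 18 hypoxia response genes, with 0 lower (11.1% higher, against 6.41% of all genes). NDRG1 was not called without the pair numbered 2 (adjusted p = 0.314) or 4 (0.0884), nor after centring (0.0797).

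Among genes of protein folding and amino acid stress, 4 of 25 were higher and 1 lower (16.0% and 4%, against 6.41% and 2.52% of all genes), or 3 and 0 without the pair numbered 4. MTHFD2, a mitochondrial folate enzyme, measured 108, 119 and 89.3 TPM with the miR-143 mimic, against 41.5, 61.8 and 29.4 TPM with the miR-150 mimic (1.29, SE 0.131, adjusted p = 0.00261) and 134 ± 14.6 TPM in the control. The endoplasmic reticulum chaperone HSP90B1 was higher by 0.81 (SE 0.0787, adjusted p = 0.00226). In MAPK feedback and the immediate early response, 2 of 22 were higher and 4 lower (9.09% and 18.2%, against 6.41% and 2.52% of all genes; 1 and 3 without the pair numbered 4). MYC measured 50.8, 72.4 and 47.4 TPM with the miR-143 mimic, against 97.6, 124 and 77.2 TPM with the miR-150 mimic (-0.80, SE 0.0962, adjusted p = 0.00457), and DUSP5, a phosphatase of ERK, was higher by 0.92 (adjusted p = 0.00275). Of 17 genes of the microRNA machinery, DICER1, which cuts precursors (-0.58, adjusted p = 0.0388), and XPO5, which exports them (-0.56, adjusted p = 0.0214), were lower and 0 higher (11.8% lower, against 2.52% of all genes). Both calls were lost without the pair numbered 2 (adjusted p = 0.202 and 0.15), and that of DICER1 also without the pair numbered 3 (0.0712) or with the block in all 12 libraries (0.304). Of the genes named here and above, CAP1, P4HA3, NID2, THBS1, NOS3, TYMS, MDM2, PGK1, HSP90B1, XPO5, MAPK7 and FZD4 share exonic bases with another annotated gene, and reads in the overlap may be credited to either.

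Of 79 cytosolic ribosomal protein genes, 28 were lower with the miR-143 mimic and 0 higher (35.4%, against 2.52% of all genes), all 79 lay below 0, and the median was -0.35. RPL13A measured 2113, 2398 and 2743 TPM with the miR-143 mimic, against 3141, 2999 and 4799 TPM with the miR-150 mimic (-0.57, SE 0.104, adjusted p = 0.019; 0.0677 and 0.0647 without the pairs 2 and 4, 0.0797 after centring) and 3006 ± 202 TPM in the control. The list's median was -0.41, -0.14 and -0.47 in the pairs 2, 3 and 4. Without the pair numbered 2 or 4, limma called 0 members, with 28 and 38 lower at an unadjusted p under 0.05, and without the pair numbered 3 it called all 79. It also called 0 after centring on the median gene (41 lower at an unadjusted p under 0.05), and 0 without the block in the 6 libraries (15) or in all 12 (40; 0.604% of all genes were lower there). The share of 24.2% of TPM that these transcripts took in miR-150 mimic replicate 4 moves with this result, and its part in it was not tested. Many ribosomal protein genes have processed pseudogenes that may share their reads. Of 13 mitochondrially encoded mRNAs, 0 were called by limma in either direction, with 6 higher at an unadjusted p under 0.05. Their median was 0.25, 0.01 and 1.04 in the pairs 2, 3 and 4, with 5 and 13 higher without the pairs 2 and 3.

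Some markers of other cell types were at or near 0, and others were expressed. The highest level in any of the 6 libraries was 1.16 TPM for the epithelial gene EPCAM, 0.0914 TPM for CDH1 and 0.169 TPM for KRT5. It was 0.685 TPM for the fibroblast gene COL3A1, 0.533 TPM for DCN and 0.223 TPM for LUM. For the T cell gene CD3E it was 0.0793 TPM and for the leukocyte gene PTPRC 1.55 TPM. Other markers were expressed in all 6 libraries. The keratin KRT18 lay between 697 and 978 TPM and KRT8 between 31.2 and 55.1 TPM. The collagen genes COL1A1 (5.13 to 15.7 TPM) and COL1A2 (3.32 to 28.5 TPM) were also present, as were ACTA2, the smooth muscle actin (2.52 to 18.1 TPM), and PDGFRB (0.605 to 2.13 TPM). So were the macrophage genes CD68 (25.5 to 58.5 TPM) and CD14 (1.22 to 2.86 TPM). Of the 9 endothelial markers KDR was higher, and of the 4 lymphatic markers PDPN, podoplanin, was lower, at 64.2, 53.1 and 55.3 TPM with the miR-143 mimic against 94.6, 81.3 and 74.6 TPM with the miR-150 mimic (-0.53, SE 0.0945, adjusted p = 0.0172; 0.103 without the pair numbered 2). Of the tested epithelial, fibroblast and leukocyte markers, 0 of 3, 0 of 4 and 0 of 2 were called.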

How the data were processed

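The authors deposited TPM for 187626 transcripts in 12 libraries, made with kallisto per the submitters' processing notes, which also name FastQC, sleuth and GRCh38, here without versions. Such values can carry length bias, and read totals are lost. The labels call the libraries microRNA libraries, while the table lists long transcripts. TPM were summed per gene symbol (36433; 171 transcripts had none). A gene entered the tests, on log2(TPM + 1), if it reached 1 TPM in 3 or more of the 12 libraries (13750 genes); this scale understates changes of low genes. limma 3.58.1 (mean-variance trend), tested on simulated data, was fitted to the 6 libraries with the replicate number as a block. What the numbers mark is not stated; across genes, residuals of libraries sharing a number correlated with 0.59, 0.63 and 0.74, each above 0.1. Without the replicate block, 4 genes were called. Comparisons with scrambled RNA used all 12 libraries, without a block unless stated. The members and gene lists were chosen with earlier results of these data known. Named were the 10 highest and 10 lowest genes, called list members (in longer lists the 4 with the largest change) and known targets. Annotation came from GENCODE 29, where 90.6% of transcripts were found; 677 tested symbols join several Ensembl genes. Alternatives are given in the closing section. Some genes that this rule named are not reported here.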

Additional observations from a re-analysis of the deposited data

How the results depend on the processing

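The counts of higher and lower genes (882 and 347) were 1 and 3 without the replicate block, 218 and 83 in all 12 libraries without it, 242 and 99 without the mean-variance trend, and 0 and 2 without a filter on low values, where 23576 genes were tested and 3731 had an unadjusted p under 0.05. They were 1327 and 991 with the length trend removed, and lower genes numbered 630 after centring, 739 after quantile normalization and 580 in all 12 libraries with the block less the 2 numbered 4, an alternative chosen after seeing the data. Leaving out a pair gave 475 to 1699 higher and 160 to 601 lower genes. Called list members (169) numbered 36 in all 12 libraries without the block, 1 without a filter, 52 without the trend, 1 without the block and 93 to 327 with a pair left out. The cause of these changes was not tested. Of the 1229 calls, 1019 were also made in all 12 libraries with the block. With a pair left out, CXCR4 ranged from -0.27 to 0.0099 and FZD4 from -0.083 to 0.0205, changing sign without the pair numbered 2 and the pair numbered 3, and neither was called. The other 120 of 122 named genes kept their direction in each setting that gave them a value (114 genes with at least 5 TPM in 3 libraries). The median difference of genes with a 7-mer, -0.08, kept its direction with an 8-mer, a 6-mer or without the pair numbered 4. With 2 residual degrees of freedom, and fewer with a pair left out, the spread of a single gene rests mainly on that of all genes. Whether a call lost with a pair left out reflects that pair or the smaller number of libraries was not tested.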
